A study of Mus musculus with 11 samples.

Results

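CD49d, the integrin alpha chain encoded by Itga4, was described together with its beta partners and with alpha chains that share a partner with it. The beta chains Itgb4 and Itgb3, which do not pair with Itga4, and the ligand gene Vcam1 were also included. The 10 genes, fixed by name, were Itga4, Itgb1, Itgb7, Itga6, Itgb4, Itga5, Itgav, Itgb3, Itga3 and Vcam1. Each was read from its probe set annotated with a single gene symbol, and from the brightest over the 11 arrays where there were several. They are 10 of the 22180 genes that such probe sets name, and all 10 lay above the floor of the table (an intensity of 100) on each of the 11 arrays.

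RNA was measured on Affymetrix whole-transcript arrays, with 1 array for each group and no replicate. Mouse embryonic fibroblasts with a Rosa-rtTA +/- genotype, a doxycycline-dependent activator, were infected with tetO-Klf4, tetO-Sox2, tetO-Oct4 and tetO-Myc, and doxycycline was given from day 0, the day after infection. On day 9 and day 6 the cultures were double sorted into CD49d+ cells and CD73+ cells, both called poised by the labels, and CD73- cells, called non-poised, or taken unsorted. The labels do not say whether the CD49d+ gate also used CD73 or whether the days were separate cultures. The controls were V6.5 embryonic stem cells (ESC) at passage 11, the partially reprogrammed line SC4 at passage 10, and uninfected Rosa-rtTA +/- fibroblasts (MEF) at passage 4. Infected cells of a day carry the viruses and doxycycline in all 4 populations, and SC4 is a single line.

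Integrins are surface receptors made of an alpha and a beta chain, and the pair decides which matrix protein or cell surface protein is bound. The Itga4 chain pairs with Itgb1 or Itgb7 and binds fibronectin and VCAM1, and with Itgb7 also the mucosal addressin MAdCAM1. The Itgb1 chain is shared by many alpha chains, whereas Itgb4 pairs with Itga6 alone, in a laminin receptor that anchors epithelial cells in hemidesmosomes.

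The promoters of CD49d and of its beta partners are shown because these chains form the receptors that contain the sorted antigen. Each window runs from 250 bases before to 50 bases after the RefSeq start of the gene (mouse build GRCm38.p6) and is printed 5′ to 3′ on the strand of the gene. The windows are chr2:79255176-79255475 (plus strand) for Itga4, chr8:128685404-128685703 (plus strand) for Itgb1 and chr15:102231886-102232185 (minus strand) for Itgb7. Capitals mark the GC box, GGGCGG on either strand.
Itga4: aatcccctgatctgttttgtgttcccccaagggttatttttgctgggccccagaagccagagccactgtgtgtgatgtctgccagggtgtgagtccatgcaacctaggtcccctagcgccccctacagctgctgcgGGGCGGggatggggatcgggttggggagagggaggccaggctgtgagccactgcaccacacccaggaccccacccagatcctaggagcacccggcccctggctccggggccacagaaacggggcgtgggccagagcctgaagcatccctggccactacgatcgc
Itgb1: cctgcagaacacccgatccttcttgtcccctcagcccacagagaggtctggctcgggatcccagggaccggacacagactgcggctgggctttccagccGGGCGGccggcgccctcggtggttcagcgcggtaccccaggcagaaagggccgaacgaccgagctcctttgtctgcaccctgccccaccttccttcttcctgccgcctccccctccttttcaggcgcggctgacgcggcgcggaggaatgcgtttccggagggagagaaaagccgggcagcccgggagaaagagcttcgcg
Itgb7: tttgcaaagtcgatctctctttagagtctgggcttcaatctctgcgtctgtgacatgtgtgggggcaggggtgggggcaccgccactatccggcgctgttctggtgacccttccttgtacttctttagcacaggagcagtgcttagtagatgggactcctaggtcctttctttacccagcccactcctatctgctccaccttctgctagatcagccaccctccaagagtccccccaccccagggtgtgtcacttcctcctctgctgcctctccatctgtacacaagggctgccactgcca

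The Itga4 and Itgb1 windows hold 1 GC box each, and the Itgb7 window holds 0. The box was present in 35.7% of the 32851 mouse promoters of this length in the RefSeq table. The letters CACCC, counted on both strands, were found 4 times in the Itga4 window, 2 times in that of Itgb1 and 4 times in that of Itgb7, and at least once in 57.5% of all promoters. The E box CACGTG (7.15% of promoters) and the octamer ATGCAAAT (1.74%), also sought on both strands, were in none of the 7 windows matched to 6 of the 10 genes. The GC content was 64.3% for Itga4, 67.3% for Itgb1 and 56.3% for Itgb7, and the median of all promoters was 52.7%. A match to letters describes the sequence and is not a bound site.

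The arrays were alike in range. The share of probe sets at the floor was 52.14% to 54.31% and the median above it 347.05 to 388.34. As a check of the labels, Nt5e, which encodes CD73, read 2704 (day 9) and 2828 (day 6) in the CD49d+ sort and 3658 and 3438 in the CD73+ sort, but 292 and 332 in the CD73- sort. The 8 fibroblast markers summed to 33521 in MEF, and 8 stem cell markers, among them Nanog, summed to 19444 in ESC. In SC4, MEF and 6 of the 8 reprogramming arrays all 8 stem cell markers were at the floor. Among the markers of cells in which CD49d is best known, Ptprc, Csf1r, Fcer1g, Tyrobp, Cd3e and Cd52 of blood cells and Tie1 and Emcn of endothelial cells lay at 100 in every reprogramming population. Laptm5 of blood cells was not, at 335 (day 9) and 303 (day 6) in CD49d+ cells, 216 and 178 in CD73+ cells, and 124 and 100 in CD73- cells. Nor was Tek, an endothelial receptor, at 1055 and 1127 in CD49d+ cells, 1673 and 1583 in CD73+ cells, and 633 and 459 in CD73- cells. In the controls Laptm5 read 1203 in SC4, 344 in ESC and 100 in MEF, and Tek 1299, 100 and 117. Cd68 of blood cells read 527 to 662 over the 8 reprogramming arrays. Its log2 differences from CD73- cells, -0.11 in CD49d+ and -0.05 in CD73+ cells, did not pass. Among reprogramming arrays the endothelial marker Pecam1 reached 189 (CD73- cells of day 9) and Cdh5 128 (unsorted cells of day 9). Over the 9 blood markers with a probe set the sums were 1655 and 1601 in CD49d+ cells, 1474 and 1486 in CD73+ cells, and 1492 and 1365 in CD73- cells. Over the 9 endothelial markers they were 2176 and 2156 in CD49d+ cells, 2631 and 2463 in CD73+ cells, and 1621 and 1366 in CD73- cells. Against CD73- cells 2 of 3 tested blood genes (Laptm5, Coro1a) and 3 of 7 tested endothelial genes (Tek, Cldn5, Ecscr) passed as higher in CD49d+ cells, where 7.73% of all genes did. In CD73+ cells 1 of the 3 (Laptm5, 0.82, adjusted p = 0.0335) and 1 of the 7 (Tek, 1.59, adjusted p = 0.0119) passed as higher, where 5.08% of all genes did, and 1 of the 7 as lower (Egfl7, -0.57, adjusted p = 0.0178), where 2.96% did. The part of these markers in the Itga4 values was not tested.

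**Figure D1:**
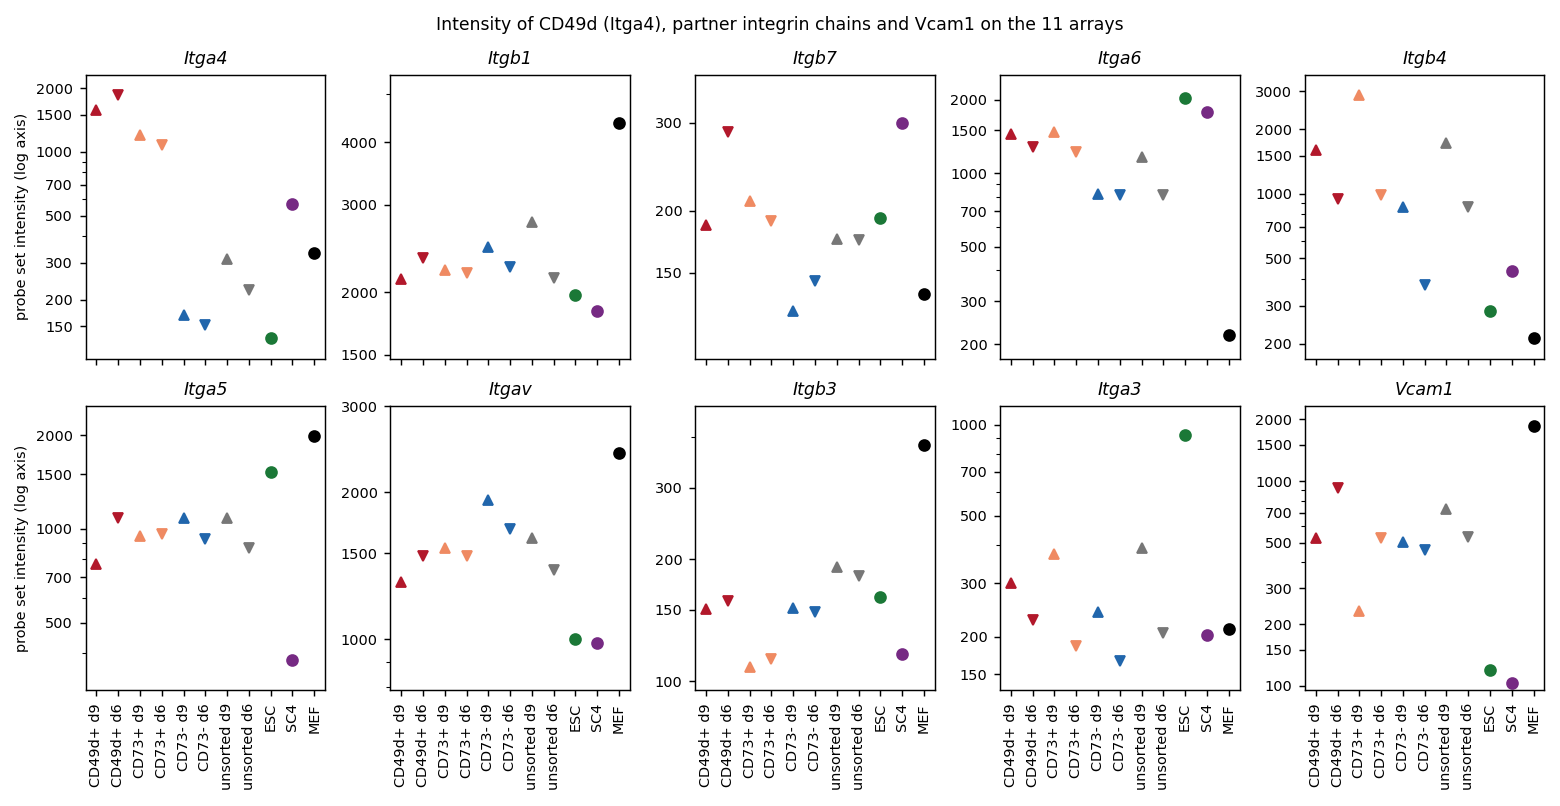
Probe set intensity (log axis, a scale for each gene) of the 10 genes on the 11 arrays, 1 point an array, with day 9 as upward and day 6 as downward triangles and the 3 controls as circles. Itga4 is at 1082 to 1859 in CD49d+ and CD73+ cells and at 566 or less elsewhere, and Vcam1 is highest in MEF (1861).

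Itga4 separated both poised populations from all other cells. Its intensity was 1588 at day 9 and 1859 at day 6 in CD49d+ cells, 1206 and 1082 in CD73+ cells, and 169.6 and 153 in CD73- cells. Unsorted cells had 311 and 223, ESC 131, SC4 566 and MEF 333. The 4 poised arrays lay above the other 7, and the order within them was CD49d+ above CD73+ at both days. Next came SC4 and then MEF, which was 1.07-fold above unsorted cells of day 9, less than the 1.39-fold between the 2 unsorted arrays. CD73- cells and ESC were lowest.

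The difference of CD49d+ from CD73- cells in Itga4 was 9.37-fold at day 9 and 12.2-fold at day 6, and from CD73+ cells 1.32-fold and 1.72-fold. These cells were sorted on the CD49d protein, so the values describe the sort and were not tested. The labels of the CD73+ and CD73- cells name no integrin, but do not say whether CD49d was also gated. If it was, the Itga4 values describe that sort as well. CD73+ cells had 7.11-fold more Itga4 than CD73- cells at day 9 and 7.09-fold more at day 6. The limma difference was a log2 value of 2.83 ± 0.165 (SE, adjusted p = 0.00712). The error pools the disagreement between the 2 days over all 4 populations, moderated by the limma prior. It is therefore the same for each pair of sorted populations. Without the CD73+ array of day 6, the CD73- array of day 6 or the CD73+ array of day 9 the difference was 2.82 to 2.84 and did not pass (adjusted p = 0.0507, 0.0532 and 0.0714), with 2 residual degrees of freedom in place of 3.

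Against MEF, Itga4 was at least 2-fold higher on all 4 poised arrays and on 0 of the other 4, with the CD73- array of day 6 2.18-fold lower. SC4 was 1.70-fold above MEF and ESC 2.53-fold below it. Itga4 thus stood 4.31-fold lower in ESC than in SC4.

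The beta partners of CD49d passed in neither contrast with CD73- cells in the main fit. Itgb1, the common beta chain, had 2131 and 2342 in CD49d+ cells at days 9 and 6, 2215 and 2190.0 in CD73+ cells, and 2469 and 2244 in CD73- cells. Unsorted cells had 2763 and 2139, ESC 1974, SC4 1838 and MEF 4375. The reprogramming arrays overlapped with one another, and MEF was above every other array. The log2 difference from CD73- cells was -0.08 ± 0.127 for CD49d+ cells (adjusted p = 0.763) and -0.10 ± 0.127 for CD73+ cells (adjusted p = 0.697). At either day the difference was 1.16-fold or less in both populations.

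Itgb7, the beta chain of the gut-homing receptor on lymphocytes, was dim on all arrays. It had 187 and 288 in CD49d+ cells at days 9 and 6, 209 and 190.2 in CD73+ cells, and 126 and 145 in CD73- cells. Unsorted cells had 175 and 174, ESC 193, SC4 300.1 and MEF 136. All 4 poised arrays were above both CD73- arrays, and SC4 was the brightest array. The log2 differences from CD73- cells were 0.78 ± 0.188 in CD49d+ cells (limma, adjusted p = 0.0574) and 0.56 ± 0.188 in CD73+ cells (adjusted p = 0.135), which did not pass. Under quantile normalization the CD49d+ value, 0.78, did pass (adjusted p = 0.0438). Over 8 fits that each leave out 1 array, the difference ran from 0.48 to 1.08 in CD49d+ cells and from 0.36 to 0.77 in CD73+ cells. Part of these fits passed in each contrast, so the lack of a call for Itgb7 also depends on single arrays.

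Itga6 and Itgb4, whose products pair in the hemidesmosome receptor, were both higher than in CD73- cells in both poised populations. Itga6 had 1447 and 1278 in CD49d+ cells at days 9 and 6, 1476 and 1224 in CD73+ cells, and 825 and 813 in CD73- cells. Unsorted cells had 1169.8 and 818, ESC 2029, SC4 1778 and MEF 217. The poised arrays lay above the CD73- and unsorted arrays and below ESC and SC4, and MEF was by far the lowest. Itga6 was higher than in CD73- cells by 0.73 ± 0.124 log2 units in CD49d+ cells (adjusted p = 0.0272) and by 0.72 ± 0.124 in CD73+ cells (adjusted p = 0.0374), or 1.66-fold and 1.64-fold.

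Itgb4 had 1594 and 939.6 in CD49d+ cells at days 9 and 6, 2872 and 983 in CD73+ cells, and 864 and 377 in CD73- cells. Unsorted cells had 1725 and 864, ESC 283, SC4 435 and MEF 212. The array of CD73+ cells at day 9 was highest, and the 3 controls were below all reprogramming arrays except that SC4 exceeded the CD73- array of day 6. Both poised populations were above CD73- cells of the same day, by 1.84-fold and 2.49-fold in CD49d+ cells at days 9 and 6 and by 3.32-fold and 2.61-fold in CD73+ cells. The log2 differences were 1.10 ± 0.188 (adjusted p = 0.0273) and 1.56 ± 0.188 (adjusted p = 0.018). Itgb4 was also the member with the largest day difference, which is given with the days.

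The Itga6 and Itgb4 calls depend on single arrays. For Itga6 in CD49d+ cells, leaving out the CD49d+, CD73+ or CD73- array of either day ended the call (adjusted p = 0.0591 to 0.113). For Itga6 in CD73+ cells, leaving out the CD73+ or CD73- array of either day did (0.0888 to 0.224). For Itgb4 in CD49d+ cells the CD49d+ array of day 6 or the CD73- array of either day was needed (0.0899 to 0.119), and in CD73+ cells the CD73+ or CD73- array of either day (0.0561 to 0.105). Without the day term in the fit none of the 4 passed, at an adjusted p of 0.0641 and 0.0865 for Itga6 and 0.359 and 0.227 for Itgb4 in CD49d+ and CD73+ cells. The Itga6 call in CD73+ cells was also lost with centred arrays (0.0585) and without the filter on dim genes (0.0624). Their directions stayed the same in each case. Among the cell type markers, the 7 epithelial genes with a probe set summed to 2672 and 1451 in CD49d+ cells at days 9 and 6, 2363 and 1656 in CD73+ cells and 1988 and 1404 in CD73- cells. The sums were 4168 and 3021 in unsorted cells, 9029 in ESC, 1969 in SC4 and 1128 in MEF. Krt8 was called in CD73+ cells (0.62, adjusted p = 0.0133, where 5.08% of all genes were higher) and the other 6 in neither population, and their part in the Itga6 and Itgb4 values was not tested.

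Itga5, the alpha chain of the main fibronectin receptor, had 771 and 1081 in CD49d+ cells at days 9 and 6, 947 and 963 in CD73+ cells, and 1084 and 930.1 in CD73- cells. Unsorted cells had 1082 and 866, ESC 1523, SC4 378 and MEF 1989. The 3 sorted populations overlapped, all 8 reprogramming arrays lay below ESC and MEF, and SC4 was lowest. The log2 differences from CD73- cells were -0.14 ± 0.203 in CD49d+ and -0.07 ± 0.203 in CD73+ cells (adjusted p = 0.721 and 0.891).

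Itgav, the alpha chain shared by the vitronectin receptors, had 1311 and 1483 in CD49d+ cells at days 9 and 6, 1539 and 1483 in CD73+ cells, and 1926 and 1684 in CD73- cells. Unsorted cells had 1616 and 1388, ESC 1004, SC4 984 and MEF 2405. Both CD73- arrays lay above all 4 poised arrays, but the log2 differences of -0.37 ± 0.113 in CD49d+ cells (adjusted p = 0.0963) and -0.25 ± 0.113 in CD73+ cells (adjusted p = 0.222) did not pass. The second probe set of Itgav was at the floor on all 11 arrays.

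Itgb3, the beta chain of a vitronectin receptor known from platelets and osteoclasts, was dim, and was the member that fell in CD73+ cells. It had 150.4 and 158 in CD49d+ cells at days 9 and 6, 109 and 113 in CD73+ cells, and 152 and 148 in CD73- cells. Unsorted cells had 192 and 182, ESC 162, SC4 117 and MEF 381. CD73+ cells were below the other reprogramming populations on both days, near the floor, and CD49d+ and CD73- cells overlapped. The log2 difference was -0.43 ± 0.0667 in CD73+ against CD73- cells (adjusted p = 0.0301), or 1.35-fold, and 0.04 ± 0.0667 in CD49d+ against CD73- cells (adjusted p = 0.751). CD49d+ cells stood 0.48 ± 0.0667 above CD73+ cells, which did not pass (adjusted p = 0.0605) but did under quantile normalization (0.54, adjusted p = 0.0375) and without the day term (adjusted p = 0.0429). The fall in CD73+ cells did not pass without the CD73+, CD73- or unsorted array of either day (adjusted p = 0.0515 to 0.221), nor with the 6 sorted arrays alone (0.0515) or without the filter on dim genes (0.0501).

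Itga3, the alpha chain of another laminin receptor, had 299 and 227 in CD49d+ cells at days 9 and 6, 375 and 186 in CD73+ cells, and 241 and 166 in CD73- cells. Unsorted cells had 393 and 205, ESC 921, SC4 202 and MEF 211. ESC was above all other arrays and the sorted populations overlapped. The log2 differences from CD73- cells were 0.38 ± 0.172 in CD49d+ and 0.40 ± 0.172 in CD73+ cells (adjusted p = 0.21 for each).

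Vcam1, a cell surface ligand of the CD49d receptors, had 526 and 925 in CD49d+ cells at days 9 and 6, 232 and 525 in CD73+ cells, and 501 and 459 in CD73- cells. Unsorted cells had 731 and 531, ESC 119, SC4 103 and MEF 1861. MEF was highest, ESC and SC4 lay close to the floor, and the CD73+ array of day 9 was the lowest of the reprogramming arrays. CD49d+ cells exceeded CD73+ cells by 2.26-fold at day 9 and 1.76-fold at day 6, a log2 difference of 0.999 ± 0.42 that did not pass (adjusted p = 0.232). The differences from CD73- cells were 0.54 ± 0.42 and -0.46 ± 0.42 (adjusted p = 0.456 and 0.545).

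Fibroblast markers varied between the same arrays as Vcam1 and Itgb3. The 8 markers summed to 5420 and 8555 in CD49d+ cells at days 9 and 6, 4256 and 5391 in CD73+ cells, and 5263 and 4698 in CD73- cells. Unsorted cells had 8265 and 6267, ESC 2955, SC4 1526 and MEF 33521. Pdgfrb, a receptor of mesenchymal cells, was at the floor on both CD73+ arrays, against 449 and 246 in CD73- cells. In CD73+ against CD73- cells the median of the 8 markers was -1.04, beside -0.02 for all genes tested. Among them Prrx1 rose (0.87, adjusted p = 0.0226), Col3a1 fell (-1.43, adjusted p = 0.0209), and the other 6 stood at -0.37 to -1.73 and did not pass, where 5.08% of all genes passed as higher and 2.96% as lower. In CD49d+ against CD73- cells the median was 0.24, beside 0 for all genes, and the same 2 passed, Prrx1 at 0.89 (adjusted p = 0.0159) and Col3a1 at -0.83 (adjusted p = 0.0474). The part of these genes in the Vcam1 and Itgb3 values was not tested. In sorted or unsorted bulk samples fewer cells of a type and less RNA per cell cannot be told apart.

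Set against all genes, 2 of the 9 members tested in CD49d+ against CD73- cells passed, both higher, where 13.4% of the 13312 genes in the fit passed in either direction, 7.73% higher and 5.67% lower. In CD73+ against CD73- cells 4 of 10 passed, 3 higher (Itga4, Itga6, Itgb4) and 1 lower (Itgb3), with 8.04% of all genes passing, 5.08% higher and 2.96% lower. Of the genes passing in that contrast 63.2% were higher, and 50.9% under quantile normalization. Both contrasts use the same CD73- arrays, so their values are given side by side only. The ranges of the 2 populations over both days did not overlap for 6 of 10 members in the first contrast and 7 in the second, shares close to the 58.8% and 54.9% of all genes. The 6 include Itga4, whose values in CD49d+ cells describe the sort. At both days Itga4 was at least 2-fold higher in CD49d+ cells (1.55% of all genes), which again describes the sort. Itga4 and Itgb4 were at least 2-fold higher in CD73+ cells at both days (1.44%).

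**Figure D2:**
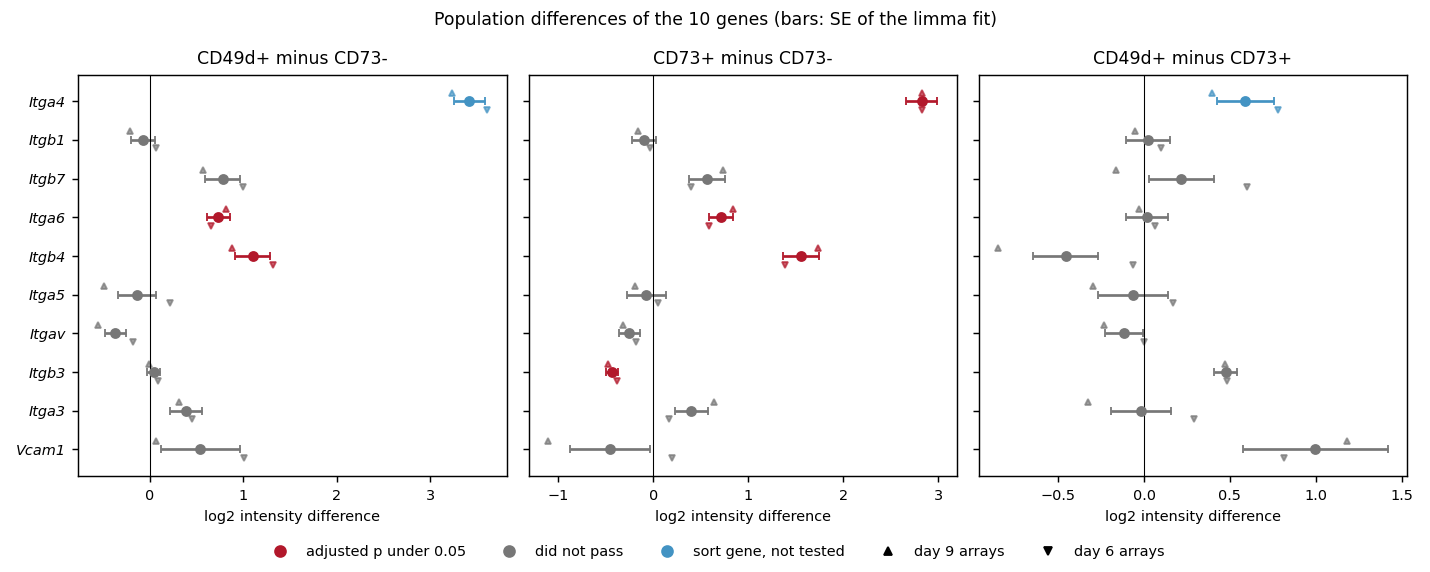
Log2 intensity differences of the 10 genes for 3 pairs of sorted populations, with the limma estimate and its SE as a circle with a bar and the values of day 9 and day 6 as small triangles, on a scale of its own in each panel. Itgb4 and Itga6 lie right of 0 in both contrasts with CD73- cells, and Itgb3 lies left of 0 in CD73+ cells (-0.43).

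Between CD49d+ and CD73+ cells 0 of 9 members passed (limma, Benjamini-Hochberg), as did 0.03% of all genes (4, of which 1 higher). Their ranges over both days did not overlap for 3 of 10 members (52.5% of all genes), among them Itga4, whose values describe the sort. At an unadjusted p under 0.05 stood 3209 genes, 1 of them a member, Itgb3. In all, 187 genes passed with centred arrays (46.5% of them higher), 813 with quantile normalization (69.1% higher) and 159 without the day term, where Itgb3 was the member that passed in the last 2. The number of genes called here thus depends on the scaling. After Vcam1, Itga4 (0.59, which describes the sort) and Itgb3, the member with the widest fitted gap was Itgb4. It was 1.80-fold lower in CD49d+ cells at day 9 and 1.05-fold lower at day 6 (limma, -0.46 ± 0.188, adjusted p = 0.222).

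Between day 9 and day 6 the hemidesmosome beta chain moved most. Itgb4 was higher at day 9 in each of the 4 populations, by 0.76 log2 units in CD49d+, 1.55 in CD73+, 1.20 in CD73- and 0.997 in unsorted cells. Itga3 was higher by 0.40, 1.01, 0.53 and 0.94 in the same populations. The fitted differences were 1.13 ± 0.133 for Itgb4 (limma, adjusted p = 0.113) and 0.72 ± 0.122 for Itga3 (adjusted p = 0.176), and neither passed.

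Itga6 was also higher at day 9 in all 4 populations, by 0.02 in CD73- to 0.52 in unsorted cells (0.25 ± 0.088, adjusted p = 0.395). In limma 0 of 10 members and 0% of all genes passed, and 1544 genes, 3 of them members (Itgb4, Itga3, Itga6), had an unadjusted p under 0.05. Vcam1 was lower at day 9 in CD49d+ cells (-0.81) and in CD73+ cells (-1.18), and higher in CD73- (0.13) and unsorted cells (0.46). The members did not move as one between the days.

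Unsorted cells of the same days were set beside the sorted ones. Itgb3 lay above all 3 sorted populations at both days, which 12.3% of all genes did. At day 9, 4 members lay above all 3 (26.3% of all genes), namely Itgb1, Itgb3, Itga3 and Vcam1. At day 6 the same held for 1 (25.4%), and 3 lay below all 3 sorted populations (14.9%), namely Itgb1, Itga5 and Itgav. The 4 populations are single arrays, and these orders have no replicate check.

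In the comparison with uninfected fibroblasts, Itga6 and Vcam1 were the members at least 2-fold apart from MEF on all 8 reprogramming arrays. Itga6 was at least 2-fold higher on all 8 reprogramming arrays than in MEF (3.74-fold to 6.79-fold), which 5.26% of all genes were. Itgb4 was higher on all 8 as well, by 1.78-fold to 13.5-fold, so that 2 members lay above MEF on every reprogramming array (32.3% of all genes). Vcam1 was at least 2-fold lower on all 8 (2.01-fold to 8.01-fold), as 5.63% of all genes were. Itgb1, Itga5, Itgav and Itgb3 were lower on all 8 by a smaller margin on at least 1 array, so that 5 members lay below MEF on every reprogramming array, against 29.1% of all genes. Itga4, Itgb7 and Itga3 lay on both sides of MEF.

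**Figure D3:**
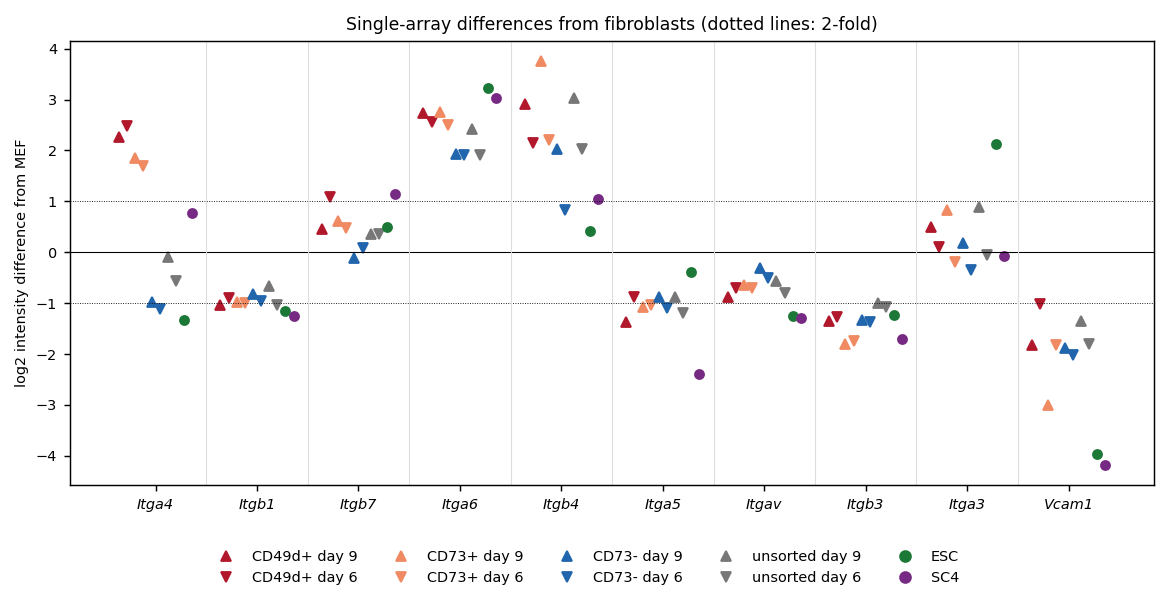
Log2 intensity difference from the MEF array for each gene, 1 point an array, with dotted lines at a 2-fold difference. All reprogramming arrays are above MEF for Itga6 and Itgb4 and below it for Itgb1, Itga5, Itgav, Itgb3 and Vcam1, and Itga4 splits into poised arrays above and CD73- and unsorted arrays below.

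ESC had 9.34-fold more Itga6 and 4.36-fold more Itga3 than MEF, the 2 members at least 2-fold higher (11.6% of all genes). In ESC 5 members were at least 2-fold lower (12.3%), from 2.22-fold for Itgb1 to 15.7-fold for Vcam1, whose ESC value of 119 is near the floor. SC4 had 8.18-fold more Itga6, 2.20-fold more Itgb7 and 2.05-fold more Itgb4 than MEF (11.5% of all genes). In SC4 5 members were at least 2-fold lower (11.8%), from 2.38-fold for Itgb1 to 18.1-fold for Vcam1. The SC4 value of Vcam1, 103, is near the floor, and Itga5 was 5.25-fold lower. ESC and SC4 differed most in Itga3 (4.57-fold higher in ESC), Itga4 (4.31-fold lower) and Itga5 (4.02-fold higher). Each control is a single array, so these differences carry no test.

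Reprogramming cells stood apart from SC4 or from ESC in a few members, and no member was at least 2-fold apart from both lines on all 8 arrays. Itga5 was at least 2-fold higher than in SC4 on all 8 arrays (2.04-fold to 2.86-fold), as was Vcam1 (2.26-fold to 8.99-fold), which 1.52% of all genes were. With arrays centred on their medians this held for 1 member, Vcam1. Itga3 was at least 2-fold lower than in ESC on all 8 (2.34-fold to 5.55-fold, 3% of all genes). In all, 5 members exceeded ESC on every reprogramming array (27.5% of all genes), namely Itga4, Itgb1, Itgb4, Itgav and Vcam1, with Itgb4 1.33-fold to 10.1-fold higher.

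Some alpha chains outside this group were lower in poised cells. Of 13 further integrin alpha chains listed, 12 had a probe set and 7 were tested, and 0 rose and 4 fell in CD49d+ and in CD73+ cells against CD73- cells, where 5.67% and 2.96% of all genes passed as lower. The list medians were -0.51 and -0.41, beside 0 and -0.02 for all genes tested. The 4 were Itga1, Itga7, Itga8 and Itga9. The other 3 did not pass, with Itga2, a collagen receptor chain, at 0.26 and 0.03, Itga11 at 0.13 and 0, and the platelet chain Itga2b at 0 in both.

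Itga8, a receptor chain for nephronectin in the kidney, had 100 and 153 in CD49d+ cells at days 9 and 6, 100 and 105 in CD73+ cells, and 388 and 326 in CD73- cells. Its log2 differences were -1.52 ± 0.207 (adjusted p = 0.0179) and -1.79 ± 0.207 (adjusted p = 0.017), which may be understated, as for Itga1, because poised arrays reach the floor. Itga1, a collagen receptor chain, had 100 and 120.3 in CD49d+ cells, 114 and 100 in CD73+ cells, and 346 and 202 in CD73- cells. Both genes were highest in MEF, at 922 for Itga8 and 488 for Itga1.

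Itga1 differed by -1.27 ± 0.238 in CD49d+ (adjusted p = 0.0334) and -1.31 ± 0.238 in CD73+ cells (adjusted p = 0.041). Itga7, a laminin receptor chain of muscle, differed by -0.54 and -0.41 (adjusted p = 0.0215 and 0.047), and Itga9, a tenascin receptor chain, by -0.51 and -0.79 (adjusted p = 0.0409 and 0.0232). Each of these calls was lost when at least 1 array was left out. Itga11, a collagen receptor chain of fibroblasts, had 2191 in MEF and 120 or less on every other array. Of 4 other beta chains 2 were tested and 0 passed in either contrast (limma, 0 at an unadjusted p under 0.05), with Itgb5 at 0.35 in CD49d+ cells and 3780.0 in MEF.

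**Figure D4:**
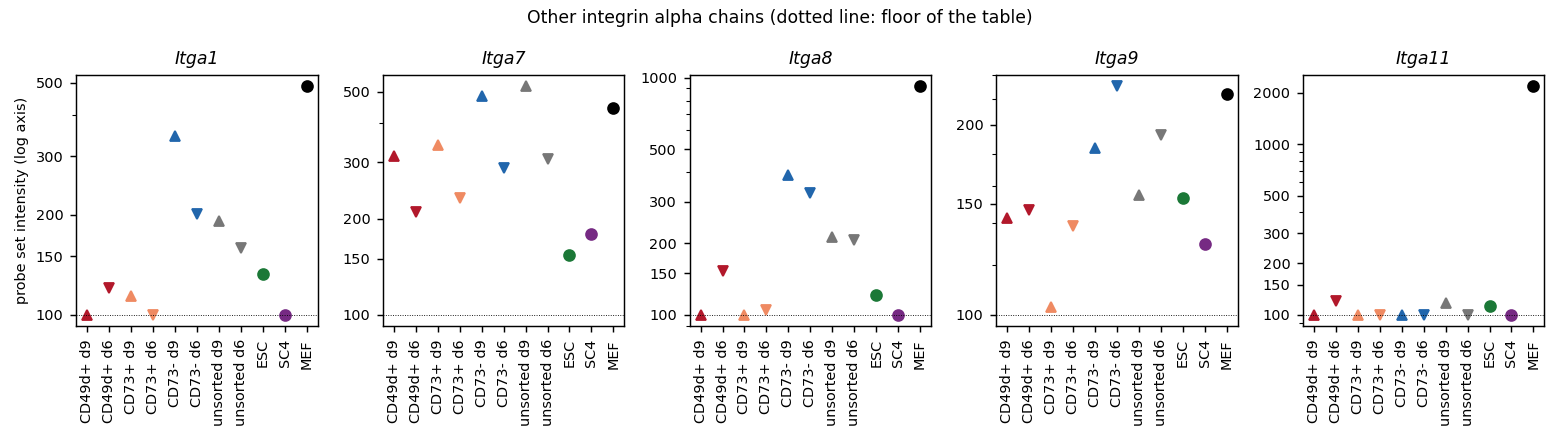
Probe set intensity (log axis) of 5 further integrin alpha chains on the 11 arrays, with the floor of 100 as a dotted line. For Itga1 and Itga8 the CD49d+ and CD73+ arrays lie at or near the floor and the CD73- arrays at 202 to 388, and Itga11 is high in MEF alone (2191).

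Of 20 listed ligands of these integrins 16 were tested, with 0 higher and 0 lower in CD49d+ cells and 1 higher and 2 lower in CD73+ cells, and medians of 0.01 and -0.01. Of all genes 13.4% passed in CD49d+ cells, and in CD73+ cells 5.08% passed as higher and 2.96% as lower. At an unadjusted p under 0.05 in limma, 2 ligands were higher and 2 lower in CD49d+ cells. The laminin chain Lama4 was higher in CD73+ cells (1.07 ± 0.207, adjusted p = 0.0452), and tenascin C (Tnc, -2.53 ± 0.493, adjusted p = 0.046) and the milk fat globule protein Mfge8 (-1.08 ± 0.178, adjusted p = 0.0342) were lower. Jam2, an endothelial junction protein that binds the Itga4 and Itgb1 receptor, had 1081 and 1697 in CD49d+ cells at days 9 and 6, 1083 and 1506 in CD73+ cells, and 462 and 147 in CD73- cells.

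All 4 poised arrays were above the CD73- arrays for Jam2, and its log2 differences of 2.38 ± 0.569 and 2.29 ± 0.569 did not pass (adjusted p = 0.0562 and 0.0754). Thbs1, thrombospondin, stood at -1.98 in CD73+ cells (adjusted p = 0.0678). Fibronectin (Fn1) had 4924 and 6176 in CD49d+ cells, 5978 and 5219.6 in CD73+ cells and 4799 and 3821 in CD73- cells. Its differences of 0.36 and 0.38 did not pass. The addressin gene Madcam1 was at the floor on all 6 sorted arrays.

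From a list of 26 cytoplasmic proteins of the integrin adhesion complex, 21 were tested. Among them 2 were higher in CD49d+ cells and 1 in CD73+ cells, and 0 were lower. Of all genes 7.73% and 5.08% were higher, shares near those of this list. Tensin 1 (Tns1), which binds beta chain tails, was higher in both (1.17 ± 0.144, adjusted p = 0.0145, and 1.08 ± 0.144, adjusted p = 0.0231). Testin (Tes), a LIM protein of focal adhesions, was higher in CD49d+ cells (0.87 ± 0.127, adjusted p = 0.0208) and stood at 0.57 in CD73+ cells (adjusted p = 0.0608). The list medians were 0.01 and -0.02, like those of all genes.

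Among 7 hemidesmosome and tetraspanin partners of these receptors, 3 were higher in CD49d+ cells and 2 in CD73+ cells, where 7.73% and 5.08% of all genes were, with medians of 0.45 and 0.09. The tetraspanin gene Cd9 was higher in both (0.82 ± 0.117 and 0.84 ± 0.117, adjusted p = 0.0201 and 0.0253). Cd151, which binds laminin receptors, and Cd82 were higher in CD49d+ cells (0.51 and 0.45, adjusted p = 0.0279 and 0.0264). In CD73+ cells Cd151 stood at -0.12 and Cd82 at 0.09, and neither passed. Dystonin (Dst), a plakin linking Itgb4 to keratin filaments, was higher in CD73+ cells (0.94 ± 0.159, adjusted p = 0.0356), while plectin (Plec, 0.15 and 0.11) and the hemidesmosomal collagen Col17a1 (0.01 and 0.01) did not pass. Col17a1 was near the floor, at 149 or less on all 11 arrays.

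The genes whose profiles were most like that of Itga4 over the 11 arrays were Syne1 (Pearson r = 0.97), Castor2 (0.97), Ubl7 (0.97), Gdf5 (0.96), Pgap4 (0.96), Nudt7 (0.96), Pde5a (0.96), Marchf10 (0.96), Garem1 (0.95) and Rhcg (0.94). They were taken from 12600 candidates by r of log2 intensities, a description over arrays that share cultures. Syne1, a nuclear envelope protein, had 576 and 655 in CD49d+ cells at days 9 and 6, 562 and 534 in CD73+ cells, 206 and 149.7 in CD73- cells and 281 in SC4. None of the 10 is an integrin. Of the 10, 3 were also among the 10 nearest by Spearman's rho and 3 by r over the 8 reprogramming arrays.

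**Figure D5:**
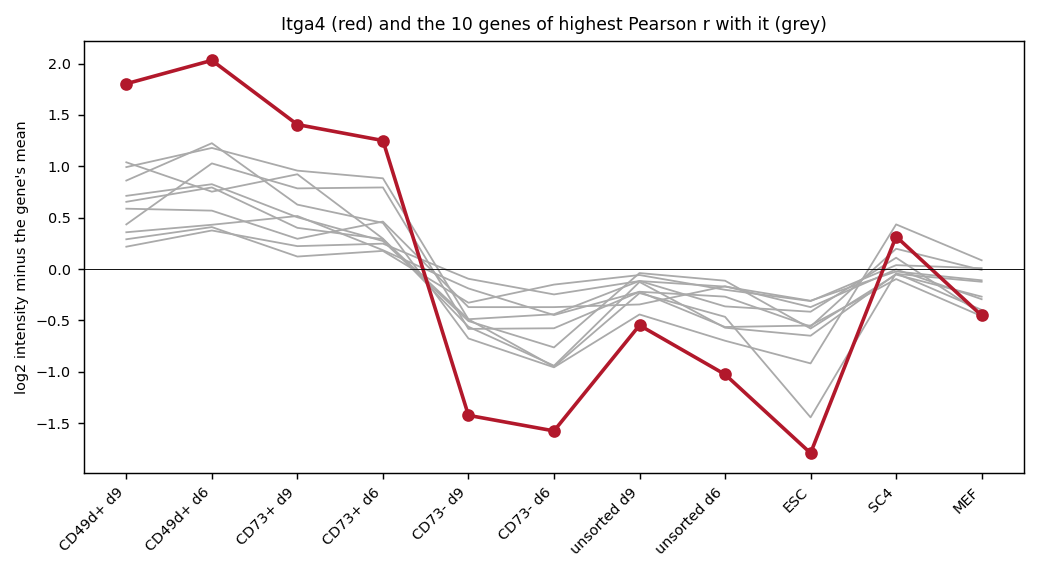
Log2 intensity minus the gene's own mean over the 11 arrays for Itga4 (red) and the 10 genes of highest Pearson r with it (grey). All are high on the 4 poised arrays and lower on the CD73-, unsorted and ESC arrays, and Itga4 has the widest span (14.1-fold from lowest to highest).

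The nearest profiles of the other members were Cmtm3, Pear1 and Ubxn4 for Itgb1 (r = 0.98 each), Ckb, Wdr25 and Spock2 for Itgb7 (0.91 to 0.93), and Sema4b, Klf10 and Pik3cb for Itga6 (0.96 to 0.98). For Itgb4 they were Ush1c, Ret and Plek2 (0.95 to 0.97), for Itga5 Zmiz1, Tspan9 and Pcnx (0.96 to 0.98) and for Itgav Prkca, Pik3r3 and Sh3glb1 (0.97 each). Itgb3 was nearest to Cyba, Plat and Clip2 (0.98 to 0.99), Itga3 to Ap1m2, Dmtn and Cadm4 (0.94 to 0.95) and Vcam1 to Fst, Cavin2 and Mtmr6 (0.95 to 0.97). Among the members themselves, r with Itga4 was 0.60 for Itgb7, 0.56 for Itgb4, 0.27 for Itga6, 0.14 for Vcam1 and below 0 for the other 5. Itgb1 and Itgb3 had r = 0.86 and Itgb1 and Itga6 r = -0.89 over the same 11 arrays, where MEF is at one end of each.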

How the data were processed

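RNA of 11 samples, 1 array a group, was measured on Affymetrix arrays. The deposited values are linear intensities for 41345 probe sets, none below 100. Per the submitters' processing notes Partek was used. The methods of summarisation, background correction and scaling were not given in the sources used here. No scaling was added. A value of 100 is an upper bound.

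Probe sets were named from GEO's platform annotation, with symbols updated through a RefSeq table (GRCm38.p6). Of the probe sets 23521 carry 1 symbol and were used, while 1814 carry more and 16010 carry no symbol. A gene was tested if it lay above the floor on at least 1 of the 8 reprogramming arrays (13313 genes, 1 dropped from the fit for a residual spread of 0). The 8 arrays were fitted on log2 intensity in limma 3.58.1 (R 4.3.3; lmFit, eBayes) with terms for population and day, leaving 3 residual degrees of freedom per gene and a prior of 2.13. Benjamini-Hochberg adjustment ran over all 13312 genes, with a threshold of 0.05. The error of every contrast comes from 1 residual spread per gene, the disagreement of the 4 populations between the days, moderated by the prior. It is not a spread between biological replicates, and the number of arrays limits the precision. Differences from MEF, SC4 and ESC are between single arrays and have no test. The fit was tested on simulated data.

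The 10 genes are always named. From the listed chains, ligands, adhesion proteins and partners, genes past the threshold, at least 1 log2 unit apart, or up to 2 examples were named. Itga2, Itga2b, Egfl7, Cd68, Pecam1, Cdh5, Fn1, Madcam1, Plec, Col17a1 and, in CD73+ cells, Tes, Cd151 and Cd82 are given in addition and were chosen after their values were seen. The members and lists were chosen with earlier results of these data known. Alternatives were other scalings, no filter, the mean of a gene's probe sets, fits with 1 term or the 6 sorted arrays, and leaving out each array.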

Additional observations from a re-analysis of the deposited data

Results flagged for a closer look

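Of 30 pairs of a member and a population contrast, 10 had opposite signs at day 9 and day 6, which are single arrays. The difference between the days was not tested in any of them. Between CD49d+ and CD73- cells the log2 differences at day 9 and day 6 were -0.21 and 0.062 for Itgb1, -0.49 and 0.22 for Itga5, and -0.011 and 0.093 for Itgb3. Between CD73+ and CD73- cells they were -0.20 and 0.050 for Itga5 and -1.11 and 0.19 for Vcam1, the widest gap. Between CD49d+ and CD73+ cells they were -0.055 and 0.097 for Itgb1, -0.17 and 0.60 for Itgb7, -0.029 and 0.062 for Itga6, -0.30 and 0.17 for Itga5, and -0.33 and 0.29 for Itga3. In none of the 10 did the fitted population difference pass in limma.

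A probe set annotated to both Itgb4 and B230344G16Rik, which was not used above, had 105.385 in CD49d+ cells at day 9 and lay at the floor of 100 on the other 7 reprogramming arrays and the 3 controls. A probe set annotated to both Cerkl and Itga4, also not used, had 162.839 in SC4 and lay at the floor on the other 10 arrays.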

How the results depend on the processing

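Each group is 1 array, so calls rest on agreement between days and no biological spread was measured. The day term pairs the populations within a day, and fits without it are among the alternatives. A block on replicate number could not be fitted, since each group has 1 array. Of 240 results under alternatives other than leaving out an array, 226 kept direction and side of the threshold, and of 320 results with an array left out 265 did. These totals include members not called in the main fit, and Itga4 in CD49d+ cells, which has no threshold. The member calls themselves were each lost in 3 to 8 of 14 alternatives. Leaving out either unsorted array gives the same fit as the 6 sorted arrays, so that fit is counted more than once. The number of genes passing in CD49d+ against CD73- cells was 1784, and 1011 without the filter, where only more genes are adjusted for. In CD73+ against CD73- cells it was 1070, and 497 without the filter, 615 without the day term and 634 with the 6 sorted arrays. In CD49d+ against CD73+ cells it was 4, and 187 with centring, 813 with quantile normalization, 1 without the filter, 159 without the day term and 0 with the 6 sorted arrays (limma, 3063 genes at an unadjusted p under 0.05). Between the days it was 0 (1544 at an unadjusted p under 0.05), and 7 with centring and 5 with quantile normalization.

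With 1 array left out the counts ran from 274 to 1579, from 0 to 1399, from 0 to 0 and from 0 to 0, in the order above. The 0 in the second contrast came without the CD73+ array of day 9 (1910 genes at an unadjusted p under 0.05), and the 274 in the first without the CD73- array of day 6. Each of the 4 fits without a CD73+ or CD73- array left 216 genes or fewer in the second contrast. The 19 calls of listed genes each failed to pass without at least 1 array, in 1 to 11 of 14 alternatives, and 0 changed sign.

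Members whose difference changed sign with an array left out are given by their range. Between CD49d+ and CD73- cells it was -0.23 to 0.080 for Itgb1, -0.47 to 0.19 for Itga5 and -0.0024 to 0.084 for Itgb3. Between CD73+ and CD73- cells it was -0.21 to 0.070 for Itga5 and -1.01 to 0.092 for Vcam1. Between CD49d+ and CD73+ cells it was -0.13 to 0.18 for Itgb1, -0.086 to 0.52 for Itgb7, -0.029 to 0.061 for Itga6, -0.39 to 0.27 for Itga5, -0.28 to 0.051 for Itgav and -0.23 to 0.20 for Itga3. Between the days it was -0.10 to 0.17 for Itga5 and -0.032 to 0.017 for Itgb3. The other alternatives turned 3 values. Itga3 between CD49d+ and CD73+ cells was 0.057 with quantile normalization, Itga5 between the days -0.10 with the 6 sorted arrays, and Itgb3 between the days 0.016 with centring. None of these passed in either direction, and the cause was not tested.

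With centring, 1 member in place of 2 stood at least 2-fold apart from SC4 on all 8 arrays. Over 3 alternatives, the members at least 2-fold apart from MEF on all 8 arrays numbered 2 to 3. Those at least 2-fold apart between ESC and MEF numbered 6 to 7. Of the 10 genes most like Itga4, 3 were kept with Spearman's rho and 3 with the 8 reprogramming arrays.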
